A study of Mus musculus with 4 samples.

Results

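The measurements below follow 10 of the 32285 genes in the deposited matrices, the immediate early genes Fos, Fosb, Jun, Junb, Jund, Egr1, Ier2, Klf6, Atf3 and Zfp36. They were chosen by symbol, with earlier results of these data known, and read as raw UMI counts in each cell class and library. A UMI, or unique molecular identifier, marks 1 captured mRNA molecule. Cells came from the AGM, the aorta-gonad-mesonephros region where definitive haematopoietic stem cells arise, of C57BL/6J mouse embryos at stage E11.5. CD31+ cells were sorted on TMRM, a dye that mitochondria take up according to their membrane potential. Dim cells form the fraction labelled MMPlow and bright cells the one labelled MMPhigh, and each has 2 libraries. All 4 libraries share the strain, the stage, the CD31 sort and the 3′ droplet chemistry, and the labels name no further treatment or allele. The comparison addresses what distinguishes cells with low and high mitochondrial activity. The labels do not say whether the 2 libraries of a fraction came from separate embryos or from pools of them, so p-values measure the spread between these libraries, which may be technical. Neither days nor handling of the libraries are given, so sorted fraction and library preparation cannot be told apart.

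Immediate early genes are switched on by pre-made transcription factors, mainly serum response factor with its ELK partners and CREB, without new protein synthesis, when growth factors, calcium, stress or cell disruption activate MAP kinases. Fos and Fosb pair with Jun, Junb or Jund to form AP-1, a leucine zipper transcription factor. Egr1 and Klf6 are zinc finger transcription factors, and Atf3 is a stress-induced leucine zipper factor that can pair with Jun. Zfp36 (tristetraprolin) is an RNA-binding protein that speeds the decay of mRNAs with AU-rich elements, and Ier2 is a short nuclear protein of the same early response. In blood cells and macrophages AP-1 is known for its part in activation and in myeloid differentiation.

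RefSeq start sites (GRCm38.p6) were matched for 8 of the 10 genes, all but Egr1 and Ier2. The 250 bases before the start are shown for Fos, Jun and Klf6, 3 genes that were higher in MMPhigh in several classes, 5′ to 3′ on the gene's own strand. Capitals mark the letters TGACATCA in Jun and Klf6, the AP-1-like element known from the Jun promoter, and TATAA in Fos. The windows are chr12:85473640-85473889 on the plus strand for Fos, chr4:95052223-95052472 on the minus strand for Jun and chr13:5861239-5861488 on the plus strand for Klf6, each ending 1 base before the first exon.
Fos: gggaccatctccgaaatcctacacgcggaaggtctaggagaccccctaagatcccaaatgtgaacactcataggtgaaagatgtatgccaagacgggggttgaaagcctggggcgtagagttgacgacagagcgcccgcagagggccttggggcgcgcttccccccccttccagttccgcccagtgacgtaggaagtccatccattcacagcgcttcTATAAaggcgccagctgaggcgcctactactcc
Jun: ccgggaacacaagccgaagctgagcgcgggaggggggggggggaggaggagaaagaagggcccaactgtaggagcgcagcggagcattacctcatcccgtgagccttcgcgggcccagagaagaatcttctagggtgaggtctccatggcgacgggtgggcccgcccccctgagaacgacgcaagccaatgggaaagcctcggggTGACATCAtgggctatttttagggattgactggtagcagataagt
Klf6: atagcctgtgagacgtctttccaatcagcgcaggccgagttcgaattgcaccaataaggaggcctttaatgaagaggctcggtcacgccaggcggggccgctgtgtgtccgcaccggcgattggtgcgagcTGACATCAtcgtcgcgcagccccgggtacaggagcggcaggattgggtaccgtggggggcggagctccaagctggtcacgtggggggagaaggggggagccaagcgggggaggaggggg
Counting back from the start site, TGACATCA lay at -45 to -38 in Jun and at -119 to -112 in Klf6. The 5 motifs were searched on both strands: TGACGTCA (the cAMP response element), TGANTCA (the AP-1 site), TGACATCA, the CArG box of serum response factor, and TATAA, with no overlap between the matches found. Over 27025 mouse promoter windows of the same length, TGACATCA occurred in 3.02%, TGACGTCA in 1.62%, TGANTCA in 6.87%, the CArG box in 1.40% and TATAA in 23.5%. The other match among the 8 genes was a CArG box in Zfp36 at -58 to -49. These matches describe letters in a window and not bound sites.

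Of 101870 barcodes, 41740 cells passed the filters (at least 2000 UMIs and 1000 genes, at most 25% mitochondrial UMIs, the highest doublet scores removed), between 3389 and 18405 per library. Median depth was 3082 and 3638 UMIs per cell in MMPlow, 3754 in MMPhigh replicate 1 and 23542 in MMPhigh replicate 2, which stands apart. Levels are therefore given as UMIs of a gene per 1000000 UMIs of a class and library (CPM), and shares of cells after each cell was thinned to 2000 UMIs. Between 7 and 81 retained barcodes were shared by any pair of libraries. Cells fell into 30 clusters, built without the 10 genes, of which 20 were named from marker lists into 10 classes holding 28131 cells. MMPhigh replicate 1 was deep in some classes too. Its median was 15745 UMIs in macrophage-like cells (2780 and 3109 in MMPlow) and 15727 in mesenchymal-like cells (3448 and 3940). In erythroid-like (6427) and neural or neural crest-like cells (3512) it was shallower than both MMPlow libraries. Cluster 28, led by Afp, Rbp4, Alb, Apoa2 and Ttr, which are hepatocyte genes, is called by its number, although epithelial markers such as Epcam, Krt18 and Krt8 followed them. CD31 itself (Pecam1) stood at 453 and 464 CPM in the endothelial-like cells of MMPlow, at 54.1 and 49.6 CPM in the macrophage-like cells and at 1.49 and 1.43 CPM in the mesenchymal-like cells of MMPhigh, so the CD31+ label does not describe every class at the RNA level. Endothelial-like cells made up 49.1 and 47.5% of the MMPlow libraries and 0.377 and 0.443% of the MMPhigh libraries. Over all retained cells a difference between the fractions therefore also holds the difference in class make-up.

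Fos and Fosb, the Fos-family partners of AP-1, were nearly absent from MMPlow and present in most classes of MMPhigh. Summed over all retained cells, Fos stood at 1.49 and 1.74 CPM in the MMPlow libraries and 23.2 and 25.03 CPM in the MMPhigh libraries (log2 fold 3.92, SE 0.13, adjusted p = 2.35e-07). Fosb stood at 0.244 and 0.115 CPM in MMPlow and 19.1 and 15.3 CPM in MMPhigh, from 25 and 2366 UMIs in all, a ratio of 96.9-fold (95% counting interval 65.5 to 150.1). The lower MMPhigh library exceeded the higher MMPlow library for both genes, an order that held for 7651 of 20383 genes tested.

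Within macrophage-like cells Fos was at 3.71 and 7.02 CPM in MMPlow and 47.4 and 46.7 CPM in MMPhigh (log2 fold 3.28, SE 0.21, adjusted p = 8.25e-08). In cluster 14, the one that held most of these cells in MMPhigh, it was at 2.58 and 11.02 CPM in MMPlow and 44.6 and 47.1 CPM in MMPhigh (log2 fold 2.47, SE 0.27, adjusted p = 3.64e-06), a ratio of 5.47-fold (95% counting interval 3.595 to 8.76) against 8.25-fold (95% counting interval 5.97 to 11.7) in the class. Within mesenchymal-like cells it was at 1.77 and 1.01 and 27.6 and 46.9 CPM (log2 fold 4.86, SE 0.36, adjusted p = 7.66e-06). Within megakaryocyte-like cells it was at 0.303 and 0.403 CPM in MMPlow and 6.55 and 16.8 CPM in MMPhigh, from 3 and 63 UMIs, a ratio of 37.9-fold (95% counting interval 12.4 to 189). Fos was therefore higher in both MMPhigh libraries in each of these 3 classes, and of the 3 the macrophage-like and mesenchymal-like cells, whose MMPhigh ranges overlapped, had the highest levels. Over all genes tested, both MMPhigh libraries were the higher ones for 2609 of 12675 in macrophage-like cells. The counts were 3423 of 14141 in mesenchymal-like and 2173 of 11611 in megakaryocyte-like cells. In muscle progenitor-like cells Fos was at 0 and 2.39 CPM in MMPlow and 24.1 and 16.9 CPM in MMPhigh, from 3 and 84 UMIs, a ratio of 12.6-fold (95% counting interval 4.16 to 62.3). In neural or neural crest-like cells no Fos UMI was found in MMPlow, which allows up to 2.18 CPM over both libraries (3 counts), against 21.8 and 18.2 CPM in MMPhigh, at least 8.71-fold higher. Different clusters held most of that class in the fractions. Cluster 20, led by Cdh6 and Sox10, held 60 and 67 MMPlow and 34 and 56 MMPhigh cells, and cluster 24, led by Thsd7b and Kcnmb2, held 31 and 19 and 137 and 83. Within each of them Fos was at least 3.93-fold (cluster 20) and 3.30-fold higher (cluster 24) in MMPhigh. In megakaryocyte-like, muscle progenitor-like and neural or neural crest-like cells Fos reached the level of the low-count filter (10 counts in a library of median size) in no MMPlow library. It was tested there because MMPhigh was high, so those values are a description. Fos was not called in endothelial-like cells and was not tested in cluster 28, erythroid-like or germ cell-like cells. In erythroid-like cells 0 Fos UMIs in MMPlow stood against 35 in MMPhigh, at least 2.46-fold higher. In germ cell-like cells 0 stood against 40, at least 1.07-fold higher. In endothelial-like cells 35 and 54 Fos UMIs in MMPlow gave 1.16 and 1.39 CPM, and none were found among the 16 and 15 endothelial-like cells of MMPhigh, where 0 counts allow up to 4.95 CPM (adjusted p = 0.623). The MMPhigh value could therefore not be told from the MMPlow value at this depth. In cluster 28 3 and 6 Fos UMIs in MMPlow (3.73 and 5.42 CPM) stood against 0 and 1 in MMPhigh (0 and 1.60 CPM), a ratio of 0.215-fold (95% counting interval 0.00491 to 1.55).

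Within each class in which Fosb was tested it reached the level of the low-count filter in no MMPlow library, and was tested because of its MMPhigh counts, so only values are given. In mesenchymal-like cells 5 UMIs in MMPlow stood against 450 in MMPhigh (0.530 and 0.288 and 43.1 and 43.6 CPM), a ratio of 109-fold (95% counting interval 46.5 to 339). In megakaryocyte-like cells the level was 0.606 and 0 CPM in MMPlow and 16.7 and 26.2 CPM in MMPhigh. In macrophage-like cells 0 and 1 UMIs in the MMPlow libraries stood against 216 and 297 in the MMPhigh libraries, or 34.8 and 15.97 CPM. Both MMPhigh libraries exceeded both MMPlow libraries in these 3 classes, an order whose counts over all genes are given above for Fos. Muscle progenitor-like cells had 3 and 102 Fosb UMIs in the fractions and neural or neural crest-like cells 0 and 159. Fosb was not tested in endothelial-like, erythroid-like or germ cell-like cells, where counts were too few. Erythroid-like cells had 0 Fosb UMIs in MMPlow and 27 in MMPhigh, at least 1.90-fold higher. Germ cell-like cells had 0 and 9, where the bound of 0.240-fold does not settle the direction.

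Jun, a partner of Fos in AP-1, was called higher in 4 of the 8 classes in which it was tested, and Junb in 1 of 6. In all retained cells together Jun was at 83.9 and 82.1 CPM in MMPlow and 153 and 161 CPM in MMPhigh (log2 fold 0.95, SE 0.08, adjusted p = 3.22e-05). The largest fold among the tested classes was in megakaryocyte-like cells, from 22.4 and 24.4 to 121 and 195 CPM (log2 fold 2.90, SE 0.23, adjusted p = 4.70e-06). Mesenchymal-like cells, of which cluster 22 held the most cells in MMPlow (648 and 681, against 97 and 115 in MMPhigh) and cluster 21 the most in MMPhigh (112 and 170, against 487 and 496 in MMPlow), went from 104 and 97.6 to 311 and 348 CPM (log2 fold 1.76, SE 0.11, adjusted p = 1.54e-07) and macrophage-like cells from 102 and 95.8 to 252 and 246 CPM (log2 fold 1.56, SE 0.11, adjusted p = 1.15e-07). In none of these did the libraries of the fractions overlap, an order whose counts over all genes are given above for Fos. Within the mesenchymal-like clusters the ratio for Jun was 3.85-fold (95% counting interval 3.47 to 4.28) in cluster 21, 3.14-fold (95% counting interval 2.82 to 3.49) in cluster 22 and 2.03-fold (95% counting interval 1.68 to 2.44) in cluster 26. Erythroid-like cells had low levels, 21.6 and 8.40 CPM in MMPlow and 47.8 and 35.8 CPM in MMPhigh (log2 fold 1.42, SE 0.34, adjusted p = 0.00615), and the call was lost without MMPlow replicate 2 (adjusted p = 0.292) and with DESeq2 (0.0808). Jun did not pass the test in muscle progenitor-like (149 and 182 against 216 and 291 CPM, adjusted p = 0.0730), neural or neural crest-like (124 and 103 against 152 and 178 CPM, adjusted p = 0.0767), endothelial-like (103 and 107 against 130.3 and 164 CPM, adjusted p = 0.228) or germ cell-like cells (55.6 and 33.5 against 55.03 and 43.4 CPM, adjusted p = 0.757). In the first 3 of these both MMPhigh libraries were above both MMPlow libraries, and in germ cell-like cells the fractions overlapped. Over all genes tested, that order held for 1750 of 9893 in muscle progenitor-like and 2786 of 11078 in neural or neural crest-like cells. It held for 2473 of 15051 in endothelial-like cells, so it is a description.

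The order of the classes by Jun level differed between the fractions. In MMPlow, muscle progenitor-like cells were highest, and endothelial-like, mesenchymal-like and macrophage-like cells lay close together between 95.8 and 107 CPM, within the spread of their libraries, with megakaryocyte-like and erythroid-like cells lowest among the named classes. In MMPhigh, mesenchymal-like cells were highest among the tested classes, muscle progenitor-like and macrophage-like cells overlapped below them, and erythroid-like and germ cell-like cells were lowest. Neighbours in these orders were not tested against each other.

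Junb, an AP-1 subunit that can oppose Jun, was called only in macrophage-like cells among the named classes, with 12.6 and 14.5 CPM in MMPlow and 25.6 and 23.2 CPM in MMPhigh (log2 fold 1.05, SE 0.18, adjusted p = 4.33e-04). Jund, the subunit with the steadiest expression in most tissues, was at 25.2 and 25.6 and 44.3 and 31.7 CPM there (log2 fold 0.77, SE 0.18, adjusted p = 0.00462), a call that was lost without MMPlow replicate 1 (adjusted p = 0.0586). In erythroid-like cells Jund fell from 27.3 and 22.05 to 15.9 and 12.3 CPM (log2 fold -0.94, SE 0.31, adjusted p = 0.0485), which did not hold when MMPlow replicate 1, MMPlow replicate 2 or MMPhigh replicate 2 was left out (adjusted p between 0.105 and 0.333). With all retained cells summed, Jund was at 40.8 and 36.8 CPM in MMPlow and 76.7 and 49.3 CPM in MMPhigh, the MMPhigh libraries differing from each other, with adjusted p = 0.0501. The Jun family thus did not move as a unit in these sums.

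**Figure D1:**
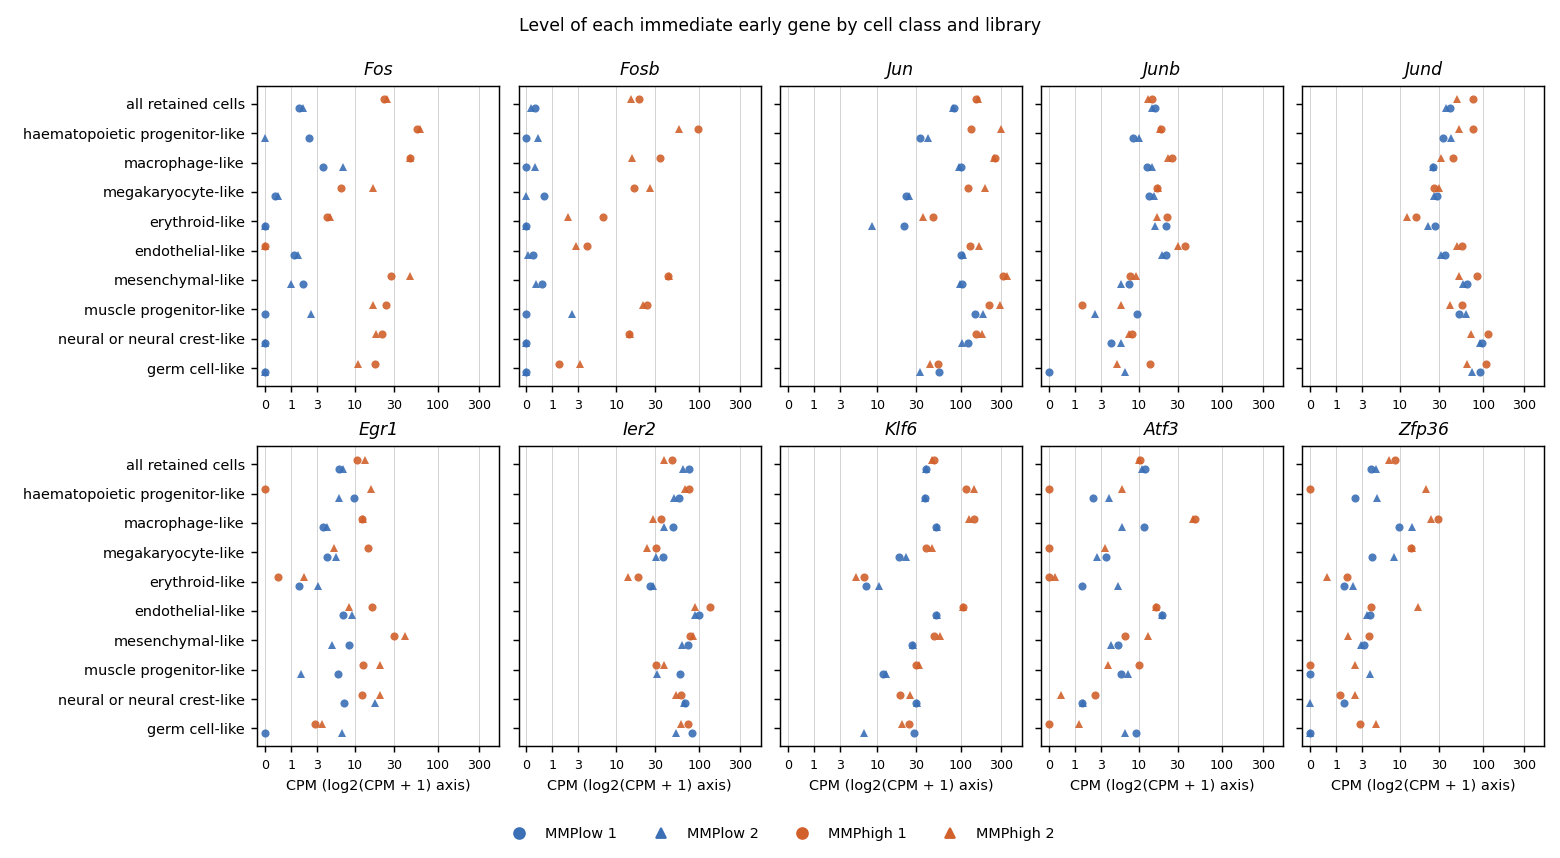
Levels of the 10 genes on a log2(CPM + 1) axis in all retained cells and 9 cell classes, with 1 point for each library (blue MMPlow, orange MMPhigh, circle replicate 1, triangle replicate 2). In macrophage-like cells the orange points of Fos (47.4 and 46.7 CPM) and Jun (252 and 246 CPM) lie to the right of the blue ones, while those of Ier2 (35.8 and 28.3 CPM) lie to the left.

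Of the zinc finger factors, Egr1 was called higher in 3 of the 6 classes in which it was tested and Klf6 in 5 of 8. Egr1 in mesenchymal-like cells was at 8.30 and 4.90 CPM in MMPlow and 30.6 and 40.9 CPM in MMPhigh (log2 fold 2.54, SE 0.24, adjusted p = 1.50e-05), and in macrophage-like cells at 3.71 and 4.26 and 12.4 and 12.6 CPM (log2 fold 1.86, SE 0.27, adjusted p = 1.15e-04). In megakaryocyte-like cells its 4 libraries overlapped, at 4.24 and 5.64 and 14.5 and 5.30 CPM (adjusted p = 0.229). Klf6 went from 50.8 and 52.4 to 145 and 124 CPM in macrophage-like cells (log2 fold 1.60, SE 0.12, adjusted p = 3.22e-07), from 26.9 and 27.5 to 48.5 and 57.7 CPM in mesenchymal-like cells (log2 fold 1.03, SE 0.14, adjusted p = 1.33e-04) and from 18.8 and 22.6 to 39.3 and 45.8 CPM in megakaryocyte-like cells (log2 fold 1.17, SE 0.21, adjusted p = 0.00135), where it did not pass on cells thinned to 2000 UMIs (adjusted p = 0.0969) or with at least 5000 UMIs per cell (0.134). It was also the 1 gene of the 10 called in endothelial-like cells, from 52.02 and 53.3 to 106 and 106 CPM (log2 fold 0.99, SE 0.21, adjusted p = 0.0224), and the call was lost when MMPlow replicate 1, MMPlow replicate 2 or MMPhigh replicate 2 was left out (adjusted p 0.126 to 0.401). In neural or neural crest-like cells Klf6 was at 30.2 and 30.95 CPM in MMPlow and 19.01 and 24.9 CPM in MMPhigh, lower in both MMPhigh libraries but not past the test (adjusted p = 0.440). There 3079 of 11078 genes tested were lower in both MMPhigh libraries. In muscle progenitor-like cells Egr1 (adjusted p = 0.0362) and Klf6 (adjusted p = 0.0429) were called, and without MMPlow replicate 2 these became 0.593 and 0.468, and without MMPhigh replicate 2 0.463 and 0.0603. Egr1 reached the level of the low-count filter in no MMPlow library there and was tested because of its MMPhigh counts. Klf6 there also lost its call without MMPlow replicate 1 (adjusted p = 0.322).

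Atf3 was called higher in macrophage-like and mesenchymal-like cells, and Zfp36 in macrophage-like and megakaryocyte-like cells. Atf3 was at 11.502 and 6.02 CPM in MMPlow and 48.2 and 45.7 CPM in MMPhigh in macrophage-like cells (log2 fold 2.71, SE 0.21, adjusted p = 4.89e-07). In mesenchymal-like cells it was at 5.30 and 4.18 and 6.54 and 13.0001 CPM (log2 fold 1.19, SE 0.33, adjusted p = 0.0229), and the call was lost without MMPlow replicate 2 (adjusted p = 0.0657) and without MMPhigh replicate 2 (log2 fold 0.53, adjusted p = 0.439). In the sums of all retained cells it was nearly level, 12.01 and 10.9 against 10.5 and 10.2 CPM (adjusted p = 0.393), where endothelial-like cells, at 19.6 and 19.3 CPM, filled a large share of MMPlow. The part of this class make-up in the Atf3 sums was not tested. Zfp36 was at 9.65 and 14.04 and 29.002 and 24.3 CPM in macrophage-like cells (log2 fold 1.34, SE 0.20, adjusted p = 1.69e-04) and at 4.24 and 8.26 and 13.8 and 14.03 CPM in megakaryocyte-like cells (log2 fold 1.22, SE 0.37, adjusted p = 0.0370). The megakaryocyte-like call did not hold without MMPlow replicate 1 (adjusted p = 0.371) or MMPhigh replicate 2 (adjusted p = 0.139).

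Ier2 was the member that was not called higher in MMPhigh in any class or in all retained cells, where it fell from 75.8 and 65.3 CPM in MMPlow to 47.2 and 38.3 CPM in MMPhigh (log2 fold -0.69, SE 0.13, adjusted p = 0.00274). In macrophage-like cells the values were 49.3 and 38.6 and 35.8 and 28.3 CPM (adjusted p = 0.260), and in mesenchymal-like cells 74.7 and 63.3 and 77.9 and 84.9 CPM (adjusted p = 0.0884). In erythroid-like cells it fell from 25.9 and 28.3 to 18.5 and 14.2 CPM (log2 fold -0.89, SE 0.29, adjusted p = 0.0471), a call lost when MMPlow replicate 1, MMPlow replicate 2 or MMPhigh replicate 2 was left out (adjusted p 0.139 to 0.290).

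Counted over the 10 genes, 9 rose and none fell in macrophage-like cells, where 18.4% of 12675 genes tested rose and 18.7% fell. Since the 10 genes were chosen with earlier results of these data known, such counts beside the share of all genes are a description. In mesenchymal-like cells 6 of 10 rose and none fell (background 7.5% higher and 12.4% lower of 14141), and 5 of 10 rose and none fell in megakaryocyte-like cells (5.12% and 7.84% of 11611). In muscle progenitor-like cells 4 of the 7 genes tested rose and none fell (0.323% and 1.97% of 9893). In neural or neural crest-like cells 2 of 8 rose (3.97% and 3.2% of 11078) and in endothelial-like cells 1 of 9 (0.625% and 0.791% of 15051). In erythroid-like cells 1 of 5 rose (2.8% of 8831) and 2 fell (6.09%), while none of the 4 genes tested in germ cell-like cells were called (4.42% higher and 3.01% lower of 6906 by edgeR). Before adjustment 0 of these 4 had p under 0.05, and DESeq2 also called 0. In macrophage-like cells the count was 6 with at least 5000 UMIs per cell (861 of 11790 genes higher), where Fosb (adjusted p = 0.0599), Junb (0.116) and Jund (0.287) did not pass. It was 7 without MMPlow replicate 1, where Fosb and Jund did not pass, and 8 without MMPlow replicate 2, where Fosb did not. Over all retained cells 6 of 10 rose and 1 fell, beside 27.3% higher and 26.5% lower of 20383 genes, so calls over all cells were frequent for any gene. Klf6 among them did not pass without MMPlow replicate 1 (0.0929) or MMPlow replicate 2 (0.0667), and the fall of Ier2 did not on cells thinned to 2000 UMIs (0.231). Some of these calls rest on genes that reached the level of the low-count filter in no MMPlow library and were tested because of their MMPhigh counts, so these calls are no support. Without them, a count added after the data were seen, 8 of 9 in macrophage-like, 5 of 9 in mesenchymal-like and 3 of 8 in megakaryocyte-like cells were higher. The count was 1 of 4 in muscle progenitor-like cells, without Fosb, Fos and Egr1, and 0 of 5 in neural or neural crest-like cells, without Fosb, Junb and Fos. The median log2 fold of the genes left was 1.56 in macrophage-like, 1.03 in mesenchymal-like and 0.65 in megakaryocyte-like cells, with a median over all genes tested of 0.00, 0.00 and 0.00.

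**Figure D2:**
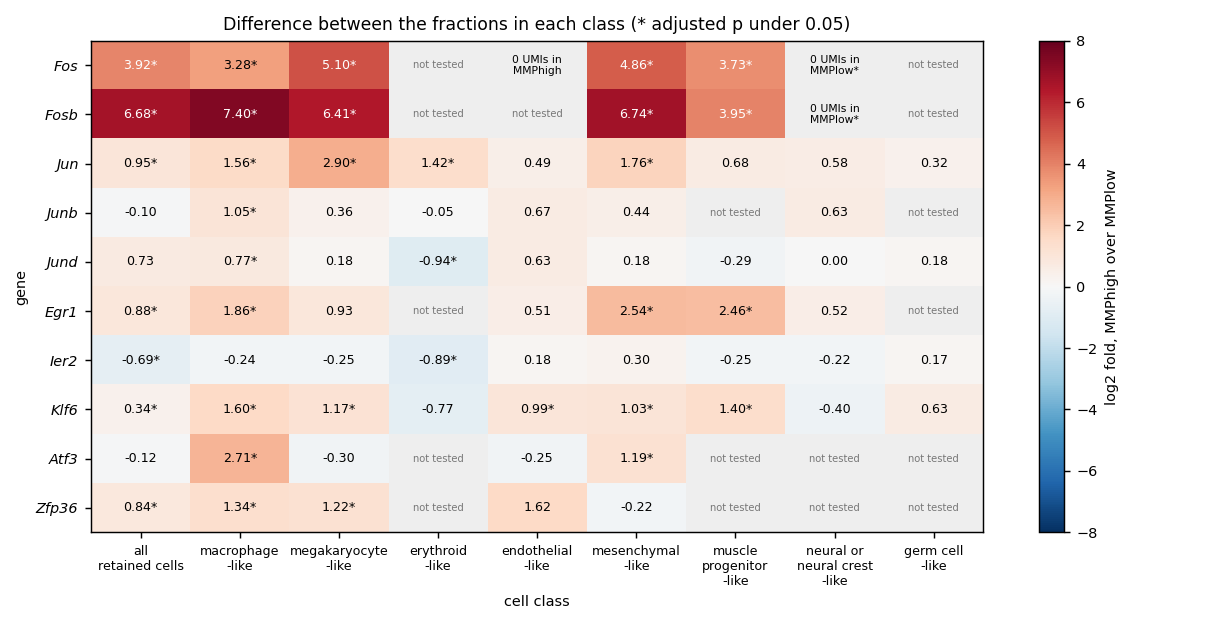
Fitted log2 fold of MMPhigh over MMPlow for each gene (rows) in all retained cells and 8 tested classes (columns), with a star where the adjusted p was under 0.05 and grey where the gene was not tested or a fraction had 0 UMIs. Macrophage-like cells hold 9 stars, that of Fosb on a gene tested because of its MMPhigh counts, and the row of Ier2 holds no star with a positive value, and where a fraction had 0 UMIs the cell says so and gives no value.

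Different clusters made up the macrophage-like class in the 2 fractions. The cluster led by C1qc, C1qa and Ctss (cluster 14) held 155 and 300 MMPlow and 365 and 749 MMPhigh cells, and the cluster led by Mrc1 and F13a1 (cluster 15) held 641 and 685 and 24 and 17. In cluster 14 alone, an alternative added after the data were seen, 6 of 10 genes rose (5.88% of 11724 genes). Jun was at 96.8 and 87.02 CPM in MMPlow and 244 and 246 CPM in MMPhigh there (log2 fold 1.46, SE 0.12, adjusted p = 6.45e-08). Atf3 was at 20.7 and 7.71 and 48.9 and 46.1 CPM (log2 fold 2.03, SE 0.26, adjusted p = 3.81e-05) and Klf6 at 69.7 and 51.8 and 134 and 124 CPM (log2 fold 1.17, SE 0.14, adjusted p = 1.10e-05). Fosb (adjusted p = 0.132), Junb (adjusted p = 0.100) and Jund (adjusted p = 0.870) did not pass there. The endothelial marker list summed to 1417 and 929.8 CPM in MMPlow and 115 and 115 CPM in MMPhigh macrophage-like cells, and the macrophage list to 7364 and 8797 and 12449 and 12657 CPM. In mesenchymal-like cells the endothelial list summed to 1007 and 832 CPM in MMPlow and 54.1 and 62.9 CPM in MMPhigh. In megakaryocyte-like cells it summed to 1385 and 1117 CPM in MMPlow and 395 and 403 CPM in MMPhigh, and in erythroid-like cells to 439 and 482 CPM in MMPlow and 129.7 and 103 CPM in MMPhigh. In muscle progenitor-like cells it summed to 747 and 779 CPM in MMPlow and 34.1 and 42.3 CPM in MMPhigh and in neural or neural crest-like cells to 679 and 712 CPM in MMPlow and 82.5 and 30.05 CPM in MMPhigh. The list was thus lower in both MMPhigh libraries in each of these 6 classes. The part of this endothelial signal in the differences was not tested. 

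Unnamed clusters were tested by number, as an addition after the data were seen. Cluster 4, led by Gm15915, Slc25a21 and Ermap, matched no marker list. Its highest mean log2 fold over a list was 0.058 (haematopoietic progenitor), followed by 0.0076 (erythroid). Jun in cluster 4 went from 15.3 and 11.8 to 80.5 and 68.2 CPM (log2 fold 2.76, SE 0.17, adjusted p = 1.30e-09). Fos went from 0.776 and 0.122 to 7.92 and 11.3 CPM there, and 4 genes were higher and Atf3 lower (12.6% and 14.9% of 12318 genes). In cluster 18, led by the neuronal genes Cacna2d3 and Nrxn3, 3 of 9 rose (4.05% of 13156), with Jun at 42.7 and 48.3 and 97.4 and 99.4 CPM (log2 fold 1.12, SE 0.14, adjusted p = 0.00102). Atf3 in cluster 4 lost its call with DESeq2 (adjusted p = 0.142), without MMPlow replicate 1 (0.147) and without MMPhigh replicate 2 (0.399). Of the others, cluster 11 had Jun higher and Atf3 lower of 6 genes (9.13% and 9.69% of 9683), and the call of Atf3 was lost under all 8 alternatives that tested it (adjusted p 0.0688 to 0.573). Cluster 13, led by Mndal and Ccr2, had 5 higher of 10 (14.4% of 12101). Cluster 19, led by Adgrv1 and Rfx4, had 3 of 6 (4.7% of 10782), and cluster 25, led by Unc5c and Wt1, had 4 of 8 (3% of 12334). On cells thinned to 2000 UMIs the count was 0 of 3 in cluster 19 (181 of 6951 genes higher) and 1 of 5 in cluster 4 (575 of 9671). In cluster 25 the count was 1, Fosb, without MMPlow replicate 1 or MMPlow replicate 2. Among the higher genes, Fosb in clusters 13 and 25, and Fosb and Fos in clusters 4, 18 and 19, reached the filter's level in no MMPlow library. Cluster 16, which held 1864 of its cells in MMPhigh replicate 1 and mixed macrophage and neural leading genes, had no gene of the 10 called (background 0.156% of 9617 by edgeR). Before adjustment 1 gene, Jun, had p under 0.05, and DESeq2 called 0. Its Jun level was 108 and 62 CPM in MMPlow and 124 and 166 CPM in MMPhigh, both MMPhigh libraries above both MMPlow libraries but not past the test (adjusted p = 0.270). That order held for 1936 of 9617 genes tested in cluster 16.

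Whether the difference between fractions itself differed between classes was tested with a class-by-fraction interaction over 8 classes, with the library as a block. Of the 10 genes 6 were called, beside 29.6% of 15751 genes: Jun (adjusted p = 1.92e-07), Klf6 (2.00e-05), Atf3 (5.90e-05), Jund (0.00313), Egr1 (0.0120) and Ier2 (0.0446). For Jun the folds behind this ran from 0.32 in germ cell-like to 2.90 in megakaryocyte-like cells on the log2 scale. Among the classes in which Atf3 was tested singly, its log2 folds ran from -0.30 in megakaryocyte-like to 2.71 in macrophage-like cells. The other classes, too sparse in Atf3 for that test, also entered the interaction. The Atf3 ratio was 0.0352-fold (counting interval 7.65e-04 to 0.290) in erythroid-like cells, from 6 UMIs in MMPlow and 1 in MMPhigh. It was 0.120-fold (0.0138 to 1.44) in germ cell-like cells. In neural or neural crest-like cells it was 0.582-fold (0.120 to 5.54) and in muscle progenitor-like cells 0.707-fold (0.346 to 1.49). Fosb (adjusted p = 0.794), Fos (0.0687), Junb (0.310) and Zfp36 (0.163) did not pass, which does not show that they moved alike. The count was 2 (Jun and Klf6) without MMPlow replicate 2, 4 without MMPlow replicate 1, 5 without MMPhigh replicate 2 and 8 without MMPhigh replicate 1. Fos passed without MMPhigh replicate 1 (adjusted p = 5.47e-05), with the immediate early genes kept in clustering (0.0232) and with the DESeq2 likelihood ratio test (0.00502), and Zfp36 passed without MMPhigh replicate 1 (0.00675). At 2000 UMIs per cell 2 of the 7 genes that could be tested were called, Jun and Atf3, beside 1370 of 9210 genes.

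At matched depth, the shares of cells with at least 1 UMI were also higher in MMPhigh for Jun and Fos. Over all retained cells thinned to 2000 UMIs, Jun was detected in 13.9 and 13.7% of MMPlow and 21.8 and 21.95% of MMPhigh cells, a difference of 8.12 percentage points. Fos was detected in 0.261 and 0.310% and 3.70 and 4.28%, a difference of 3.70 points, which became 1.97 points at 1000 UMIs per cell and 7.13 at 5000. Without thinning, at the unequal depths above, the shares with Jun were 23.1 and 25.7% and 41.4 and 66.9%. With 2 libraries against 2 the exact permutation test cannot go below p = 0.333, so these shares carry no call. In macrophage-like cells Jun was detected in 16.8 and 16.8% and 28.5 and 32.4% of thinned cells, Klf6 in 8.29 and 8.32% and 19.3 and 18.8%, and Atf3 in 2.39 and 0.914% and 9.51 and 8.22%. In mesenchymal-like cells Jun was detected in 16.5 and 14.3% and 36.5 and 34.7%. Erythroid-like cells gave a low share for Jun in both fractions, 4.17 and 4.71% and 6.59 and 8.05%, at median depths before thinning of 9583 and 10984 and 6427 and 58003 UMIs, against 2780 and 3109 and 15745 and 22368 in macrophage-like cells. No class is known to lack immediate early genes altogether, so free RNA in the droplets has no blank here. In barcodes under 2000 UMIs Jun stood at 58.5 and 61.1 CPM in MMPlow and 137 and 95.7 CPM in MMPhigh, and Fos at 1.05 and 2.04 and 16.6 and 0 CPM. MMPhigh replicate 2 held 628 such barcodes, with 67 Jun and 0 Fos UMIs, against 4127 to 43221 barcodes in the other libraries. Its 0 for Fos does not show absence, but allows up to 4.28 CPM (3 counts), against 25.03 CPM in the retained cells of that library. The part of free RNA in the levels was not tested.

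By non-overlap of the thinned shares, 9 of the 10 genes were higher and 0 lower in both MMPhigh libraries in macrophage-like cells, Ier2 being the gene whose shares overlapped (background 17.6% higher and 46.7% lower of genes tested). In megakaryocyte-like cells 8 were higher and 1, Atf3, lower (14.1% and 35.8%). In mesenchymal-like cells 6 were higher and 0 lower (17.9% and 32.3%). These counts hold Fosb in all 3 classes and Fos in megakaryocyte-like cells, which reached the level of the low-count filter in no MMPlow library. Without them, a count added after the data were seen, 8 of 9 were higher in macrophage-like, 6 of 8 in megakaryocyte-like and 5 of 9 in mesenchymal-like cells. In endothelial-like cells, with 16 and 15 cells in MMPhigh, 3 were higher and 1, Fos, lower (11.6% and 53.1%). Fos had no UMI in those MMPhigh cells, which allows shares of up to 18.75 and 20%. So few cells could not show a fall of Fos. The test on sums of thinned cells called 9 of 10 higher in macrophage-like cells (1542 of 10498 genes tested). It called 5 of the 8 that could be tested in mesenchymal-like cells (261 of 11443) and 2 of 7 in megakaryocyte-like cells (47 of 9507). In muscle progenitor-like and neural or neural crest-like cells it called none of the 2 and 3 genes left (65 of 5473 and 78 of 4933 genes higher).

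**Figure D3:**
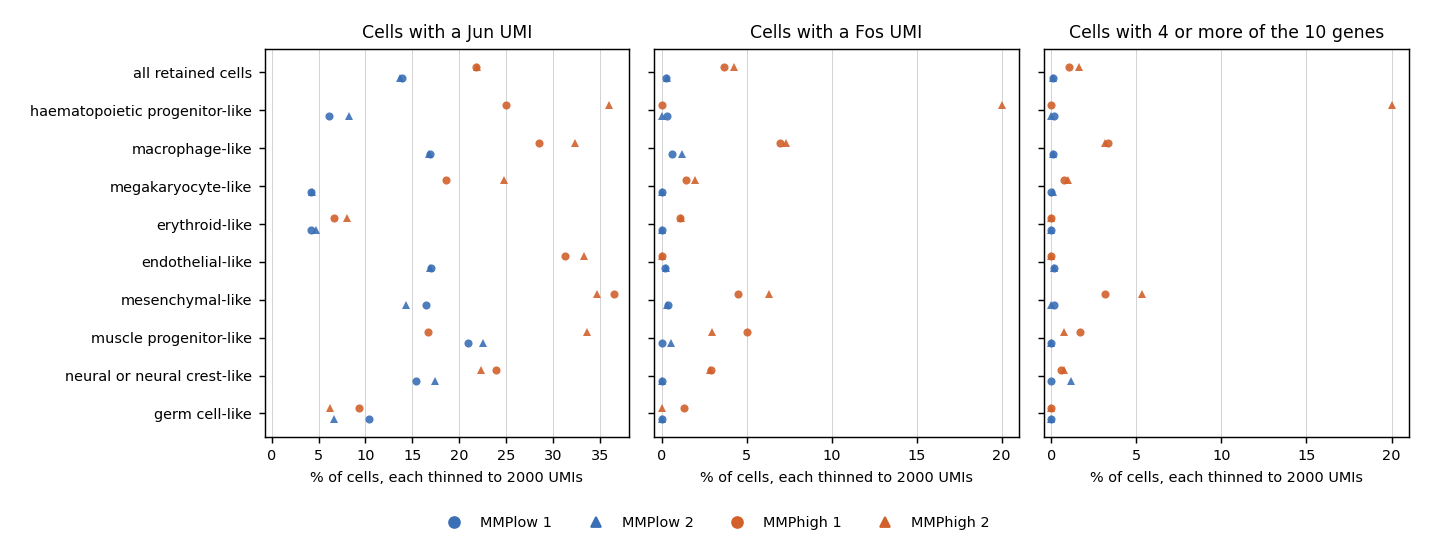
Percent of cells, each thinned to 2000 UMIs, with at least 1 Jun UMI (left), with at least 1 Fos UMI (middle) and with UMIs of at least 4 of the 10 genes (right), by class and library. Points of progenitor-like cells in MMPhigh rest on 4 and 25 cells, and in macrophage-like cells the MMPhigh points for 4 or more genes lie at 3.34 and 3.13% against 0.126 and 0.102% in MMPlow.

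Cells with many of the 10 genes at once were rare, and among classes of at least 30 cells in each MMPhigh library their share passed 2% in both only in macrophage-like and mesenchymal-like cells. UMIs of 4 or more genes were found in 0.126 and 0.102% of MMPlow and 3.34 and 3.13% of MMPhigh macrophage-like cells after thinning. In mesenchymal-like cells the shares were 0.145 and 0% and 3.15 and 5.33%, with 0 of 1441 cells in MMPlow replicate 2 allowing up to 0.208%. None of the 10 genes was found in 61.7 and 62.6% of MMPlow and 41.9 and 41.3% of MMPhigh macrophage-like cells, so many cells of both fractions had no UMI of the set at this depth. The highest sum in 1 thinned cell was 18 UMIs in MMPhigh replicate 1 of that class. Fos and Jun were found in the same macrophage-like cell 2.34 and 1.88 times as often as their separate shares give (18 and 34 cells), with Pearson's r of 0.34 and 0.21 across 389 and 766 cells that share a library and a depth. In mesenchymal-like cells of MMPhigh replicate 2 the pair of Jun and Fosb was 2.88 times and the pair of Jun and Jund 0.748 times its product of shares. These are descriptions of cells within a library, without a test.

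Progenitor-like cells, led by Ifitm1, Cpa3 and Angpt1, are given as values alone, since earlier results on Fosb, Jun and Klf6 in them had a part in the choice of the genes. They numbered 570 and 691 in MMPlow but 4 and 25 in MMPhigh. Jun stood at 33.4 and 41.9 CPM in MMPlow and 134 and 299.8 CPM in MMPhigh, Klf6 at 38.5 and 37.999 and 115 and 144 CPM, Fos at 2.26 and 0 and 57.3 and 61.2 CPM and Fosb at 0 and 0.358 and 95.5 and 57.5 CPM. The MMPhigh libraries were higher for all 4 of these genes, on 7 and 245 Jun UMIs and 3 and 50 Fos UMIs. The share of all genes that did so in these 4 and 25 cells was not counted, so this is no support. On the log2(CPM + 10) scale the difference of the means was 3.05 for Fosb, 2.64 for Fos, 2.15 for Jun and 1.52 for Klf6. Ier2 (58.3 and 49.8 against 76.4 and 67.3 CPM), Junb (8.49 and 10.04 against 19.1 and 18.4 CPM) and Jund (33.4 and 41.9 against 76.4 and 52.6 CPM) were closer between the fractions, with both MMPhigh values the higher ones. For Junb that order cannot be told in MMPhigh replicate 1, where 0 counts allow up to 57.3 CPM. Pooled ratios were 1.28-fold (95% counting interval 0.944 to 1.70) for Ier2, 1.95-fold (1.02 to 3.53) for Junb and 1.40-fold (0.992 to 1.94) for Jund. Egr1, Atf3 and Zfp36 had no UMI in the 4 cells of MMPhigh replicate 1, where 0 counts allow up to 57.3 CPM. Over both libraries of a fraction the ratio was 2.003-fold (95% counting interval 0.970 to 3.89) for Egr1, 1.75-fold (95% counting interval 0.497 to 5.05) for Atf3 and 4.95-fold (95% counting interval 2.40 to 10.2) for Zfp36. In these haematopoietic progenitor-like cells the progenitor marker list summed to 5466 and 5515 CPM in MMPlow and 6646 and 3406 CPM in MMPhigh, the endothelial list to 1326 and 1169 and 477 and 469 CPM. Granulocyte or mast-like cells (5 and 12 cells in MMPhigh) had Jun at 45.2 and 40.5 and 143 and 217 CPM. Cluster 28 (21 and 19 cells in MMPhigh) had Jun at 74.7 and 71.3 and 139 and 104 CPM, and Klf6 was lower there in MMPhigh, at 39.8 and 34.3 and 13.9 and 14.4 CPM, also without a test.

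A list of 44 other immediate early genes gave 17 higher and 1 lower of 36 tested in macrophage-like cells, where 18.4% of all genes rose and 18.7% fell, with a median log2 fold of 0.61 beside 0.00 over all genes. This list and those that follow were also chosen with earlier results of these data known, so their counts are a description. In cluster 14 alone, without Ccn1, which reached the filter's level in only 1 fraction, the counts were 8 higher and 1 lower of 31 (5.88% and 8.36% of all genes). Ppp1r15a (GADD34, a phosphatase subunit of the stress response) rose from 4.82 and 3.76 to 22.2 and 22.6 CPM (log2 fold 2.64, SE 0.23, adjusted p = 1.37e-06) and Tnfaip3 (A20, an inhibitor of NF-kB signalling) from 5.57 and 7.02 to 31.6 and 21.9 CPM (log2 fold 2.24, SE 0.26, adjusted p = 2.19e-05). Gadd45b (log2 fold 1.64, SE 0.36, adjusted p = 0.00260) and the clock gene Per1 (log2 fold 1.46, SE 0.34, adjusted p = 0.00424) also rose, and the polo-like kinase Plk2 fell from 25.2 and 29.6 to 4.51 and 5.59 CPM (log2 fold -2.18, SE 0.22, adjusted p = 3.88e-06). In mesenchymal-like cells 8 rose and 5 fell of 38 tested (7.5% and 12.4% of all genes), with Ccn1, a matricellular protein, at 30.7 and 28.2 and 76.4 and 92.6 CPM (log2 fold 1.59, SE 0.13, adjusted p = 2.42e-06), and Socs3 higher (log2 fold 1.90, SE 0.39, adjusted p = 0.00333). The phosphatase Dusp2 had 47 UMIs in MMPlow and 1 in MMPhigh there, a ratio of 0.0259 (95% counting interval 6.41e-04 to 0.151), and reached the filter's level through MMPlow alone. In megakaryocyte-like cells 3 rose (Tnfaip3, Btg2 and Ppp1r15a) and 4 fell of 27 (5.12% and 7.84% of all genes). Without list genes that reached the filter's level in only 1 fraction, such as Tnfaip3 in megakaryocyte-like cells, the counts were 2 higher and 3 lower of 24 there and 8 higher and 3 lower of 36 in mesenchymal-like cells. For all retained cells the split was 11 higher and 18 lower of 42 without Npas4, which also reached the level in only 1 fraction, and 11 and 19 of 43 with it (27.3% and 26.5% of all genes).

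Of 16 heat shock protein genes, the stress-inducible Hspa1a and Hspa1b reached the level of the low-count filter in no MMPlow library of macrophage-like, megakaryocyte-like or erythroid-like cells. They were tested there because of their MMPhigh counts, so only values are given. In macrophage-like cells Hspa1a went from 0.371 and 0.251 to 15.1 and 13.7 CPM, from 2 and 348 UMIs, a ratio of 46.9 (95% counting interval 12.9 to 389). Hspa1b went from 0 and 0.752 to 6.93 and 6.99 CPM there, from 3 and 173 UMIs, a ratio of 15.5 (95% counting interval 5.23 to 76.1). These 2 genes are near-identical copies, so reads could be split between them. In megakaryocyte-like cells Hspa1a went from 0.303 and 0 to 18.9 and 13.1 CPM, from 1 and 68 UMIs, a ratio of 123 (95% counting interval 21.3 to 4913). In erythroid-like cells Hspa1a was at 1.44 and 0 CPM in MMPlow and 7.13 and 11.8 CPM in MMPhigh, from 1 and 81 UMIs, a ratio of 17.1 (95% counting interval 2.98 to 683). In mesenchymal-like cells Hspa1a was at 0.353 and 0.288 CPM in MMPlow and 1.49 and 3.0 CPM in MMPhigh. The 2 list members that rose there were Hsp90aa1 (log2 fold 0.41, SE 0.12, adjusted p = 0.0236) and Hsph1 (log2 fold 0.36, SE 0.10, adjusted p = 0.0209), with Hspb1 lower (log2 fold -0.91, SE 0.20, adjusted p = 0.00640). Without Hspa1a and Hspa1b, a count added after the data were seen, the list gave 3 higher and 0 lower of 14 in macrophage-like cells (18.4% and 18.7% of all genes) and 5 higher and 0 lower of 13 in megakaryocyte-like cells (5.12% and 7.84%). With them the counts were 5 of 16 and 7 of 15 higher. In cluster 14 alone the counts were 2 higher and 0 lower of 15 (5.88% and 8.36%), and the 2 were Hspa1a and Hspa1b. Mesenchymal-like cells, where neither was tested, gave 2 higher and 1 lower of 14 (7.5% and 12.4%). The medians of the genes left were 0.22, 0.34 and 0.04 in the 3 classes.

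Of the 26 genes of the signalling chain from MAP kinases to ELK factors and CREB, 5 rose and 2 fell in macrophage-like cells, near or below the 18.4% and 18.7% of all genes, and the counts in cluster 14 alone were 2 higher and 0 lower of 26 (5.88% and 8.36%). Among those called higher in the class were the kinases Rps6ka1 (log2 fold 1.07, SE 0.12, adjusted p = 1.41e-05) and Mapk3 (ERK1, log2 fold 0.73, SE 0.12, adjusted p = 4.01e-04). In mesenchymal-like cells 1 rose and 2 fell (7.5% and 12.4% of all genes). Elk3, an ELK-family partner of serum response factor that is high in endothelium, fell over all retained cells (log2 fold -2.91, SE 0.10, adjusted p = 2.40e-07), in megakaryocyte-like cells (log2 fold -2.13, SE 0.22, adjusted p = 3.13e-06) and in mesenchymal-like cells (log2 fold -0.77, SE 0.12, adjusted p = 5.71e-04), beside the lower endothelial marker sums of MMPhigh given above. Its relation to those sums was not tested. Of 15 leucine zipper partners of Fos and Jun, 7 rose and 2 fell of 14 tested in macrophage-like cells (18.4% and 18.7% of all genes), and in cluster 14 alone the counts were 2 higher and 1 lower of 14 (5.88% and 8.36%). In mesenchymal-like cells the counts were 1 higher and 3 lower of 13 (7.5% and 12.4%) without Batf, which reached the filter's level in only 1 fraction, and 1 and 4 of 14 with it. There Bach2 rose (log2 fold 0.62, SE 0.12, adjusted p = 0.00220) and Maf fell (log2 fold -0.78, SE 0.15, adjusted p = 0.00215).

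**Figure D4:**
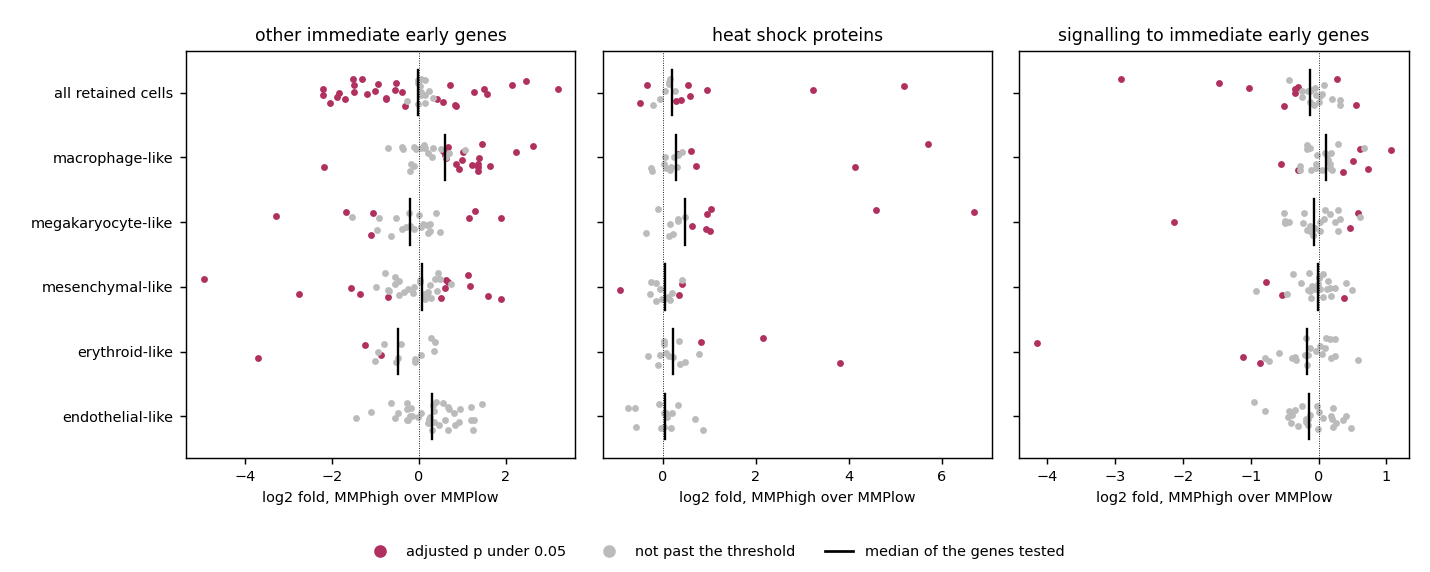
Fitted log2 folds of MMPhigh over MMPlow for the genes tested of 3 lists in all retained cells and 5 classes, with called genes in red, others in grey and a black bar at the median of each list. In macrophage-like cells 17 of 36 other immediate early genes lie at called positive values, and the 2 heat shock genes at the far right there, which were tested because of their MMPhigh counts, are Hspa1a (5.72) and Hspa1b (4.13).

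The make-up of the RNA also differed between the fractions. In macrophage-like cells Malat1, a nuclear long non-coding RNA, took 0.854 and 0.755% of UMIs in MMPlow and 0.481 and 0.481% in MMPhigh, and Actb (beta-actin) stood at 4621 and 5553 and 13539 and 12917 CPM. In mesenchymal-like cells the Malat1 share was 0.908 and 0.833% and 0.547 and 0.572%. The 13 mitochondrially encoded protein genes, which could track the sort, gave 0 higher and 2 lower in macrophage-like cells (18.4% and 18.7% of all genes) and 2 higher and 1 lower in mesenchymal-like cells (7.5% and 12.4%), and mitochondrial UMIs took 5.16 and 5.26% and 4.89 and 4.81% of the macrophage-like sums. In cluster 14 alone the counts were 6 higher and 1 lower of 13 (5.88% and 8.36% of all genes), with mitochondrial shares of 2.998 and 3.28% in MMPlow and 4.66 and 4.72% in MMPhigh. The part of these shifts in the levels of the 10 genes was not tested.

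Across 35 class and library sums, the patterns of the 10 genes were compared by Pearson's r of log2(CPM + 10). After each class mean was subtracted, the mean of the other 9 genes correlated with Fosb at 0.85, Fos at 0.82, Klf6 at 0.83 and Jun at 0.76, but with Jund at 0.37 and Ier2 at -0.07. Of 7647 genes ranked, the 8 most like the mean of the 10 were then Cfl1 (0.84), Actb (0.84), H3f3a, Psmd8, Rps2, Ftl1, Bmyc and Pfn1 (0.76). Without subtraction they were Bmyc (0.77), Actb (0.77), Akr1a1, Tmem176b, Cfl1, Gabarap, Brk1 and Trappc3 (0.70). With each class mean taken out, what is left is the difference between the libraries of a class, which holds the difference between fractions given above. The correlations after subtraction are therefore no separate result. The sums share libraries, depth and RNA make-up, so these values describe the data and carry no test.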

How the data were processed

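Expression was measured by droplet single-cell RNA-seq in 4 libraries, 2 of each sorted fraction. The deposited matrices hold whole UMI counts per gene and barcode, filtered and not normalized by the authors. The file headers name Cell Ranger 7.0.1 and the submitters' processing notes name Cell Ranger 2.1.1 and the build mm10, while the annotation is not given in the sources used here. Cells were kept with at least 2000 UMIs, 1000 genes and at most 25% mitochondrial UMIs. Doublet scores came from scrublet, whose own threshold marked between 0 and 887 cells per library and was set aside, so the highest scores were removed at 0.8% per 1000 cells, up to 6% (97 to 1174 cells). Clusters (scanpy 1.11.5, 30 principal components, Leiden resolution 1, without the 10 genes, the other immediate early genes and the heat shock genes) were named from marker lists, with naming thresholds set after the clusters were seen, and a cluster led by hepatocyte genes was left unnamed. The member genes and the gene lists were chosen with earlier results of these data known. Counts were summed per class and library (at least 20 cells each, 10 for endothelial-like cells) and tested with edgeR 4.0.16's quasi-likelihood test (TMM, filterByExpr, robust, Benjamini-Hochberg over all genes tested, threshold 0.05), or DESeq2 1.42.0 as an alternative. In a test on simulated data the share of false calls was above the threshold for the interaction, all retained cells, macrophage-like and mesenchymal-like cells. Named genes were the 10, up to 4 called genes per direction, list and class, and the 8 genes most like them. Library totals ran from 51800709 to 120168395 UMIs. Intervals (exact, 95%) and the limit set by 0 counts (3 counts) cover counting error only. Alternatives were another test, filters, depths, doublet and clustering settings, a replicate block and each library left out.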

Additional observations from a re-analysis of the deposited data

Results flagged for a closer look

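For 6 of the 10 genes the difference between MMPhigh and MMPlow itself differed between classes by the class-by-fraction interaction (edgeR's quasi-likelihood test, adjusted over all genes tested): Jun (adjusted p = 1.92e-07), Klf6 (2.00e-05), Atf3 (5.90e-05), Jund (0.00313), Egr1 (0.0120) and Ier2 (0.0446). For Klf6 the fitted log2 fold was 1.60 in macrophage-like cells and -0.77 in erythroid-like cells. For Jund it was 0.77 and -0.94 in the same classes, and for Ier2 0.30 in mesenchymal-like and -0.89 in erythroid-like cells. Among the classes in which Egr1 was tested singly, it ran from 0.51 in endothelial-like to 2.54 in mesenchymal-like cells. Erythroid-like and germ cell-like cells, too sparse in Egr1 for that test, also entered the interaction. The Egr1 ratio was 0.580-fold (counting interval 0.172 to 2.50) in erythroid-like cells, from 4 UMIs in MMPlow and 11 in MMPhigh. In germ cell-like cells it was 0.881-fold (counting interval 0.128 to 37.9), from 1 and 11 UMIs. An interaction was called for 29.6% of all genes tested, so such a call was not rare in these libraries. Without MMPlow replicate 2 it held for Jun and Klf6 alone among the 10. With at least 5000 UMIs per cell Jund (0.117) and Ier2 (0.226) did not pass, under 10% mitochondrial UMIs Ier2 (0.0544) did not, and with the immediate early genes kept in clustering Egr1 (0.134) did not. On cells thinned to 2000 UMIs Klf6 (0.262), Jund (0.315) and Ier2 (0.792) did not pass and Egr1 was not tested.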

How the results depend on the processing

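No called member changed direction under any alternative run. The calls counted here include those on genes that reached the level of the low-count filter in no MMPlow library, which are no support. Each call of a member, in all retained cells or in a class, was set against each alternative that tested it. Of these pairs of a call and a setting, 253 kept and 22 lost the call under settings other than leaving out a library. When a library was left out, 120 pairs kept it and 27 lost it. On sums of cells thinned to 2000 UMIs the count of members higher was 0 in endothelial-like cells (5 of 13656 genes). It was 2 in megakaryocyte-like (47 of 9507), 0 in muscle progenitor-like (65 of 5473) and 0 in neural or neural crest-like cells (78 of 4933). With fewer genes passing the filter, 2 members kept the interaction (1370 of 9210 genes). No member could be tested on thinned sums of erythroid-like or germ cell-like cells. With at least 5000 UMIs per cell germ cell-like cells were too few to fit. The count of members higher was then 6 in macrophage-like cells (against 9, beside 861 of 11790 genes). It was 3 in megakaryocyte-like (72 of 10086) and 1 in muscle progenitor-like cells (18 of 8987). With members that passed the filter through MMPhigh alone left out, chosen after seeing the data, it was 3 in megakaryocyte-like, 1 in muscle progenitor-like and 0 in neural or neural crest-like cells. With DESeq2 it was 0 (and 0 lower) in erythroid-like cells (43 higher and 266 lower of 8831 genes) and 2 in muscle progenitor-like cells (17 higher of 9893). The cause was not tested. Leaving out 1 library gave 5 to 7 members higher in all retained cells, 0 to 1 in endothelial-like, 0 to 1 in erythroid-like, 7 to 9 in macrophage-like, 4 to 5 in megakaryocyte-like, 5 to 7 in mesenchymal-like, 1 to 5 in muscle progenitor-like and 0 to 3 in neural or neural crest-like cells, and 2 to 8 members in the interaction.

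The difference in the share of cells was 1.97 points at 1000 UMIs and 7.13 points at 5000 UMIs for Fos, and 5.96 and 6.97 points for Jun, and the cause was not tested. At 5000 UMIs 12461 and 12974 MMPlow and 2653 and 232 MMPhigh cells were left out as too shallow. Without 1 library it ran from 3.41 to 3.99 points for Fos and from 8.03 to 8.21 for Jun. In progenitor-like cells with at least 5000 UMIs the log2(CPM + 10) difference was 2.38 for Fos, 2.79 for Jun and 1.08 for Klf6. Without 1 library it ran from 2.50 to 2.79 for Fos, 2.73 to 3.37 for Fosb, 1.60 to 2.71 for Jun and 1.37 to 1.68 for Klf6. Clustering with the immediate early genes kept gave 589 CPM of the 10 genes in macrophage-like and 674 CPM in mesenchymal-like cells of MMPhigh, against 637 and 669.7 CPM. The replicate numbers do not pair the libraries by any label, and the correlation of same-numbered deviations ran from -0.01 to 0.18. With the replicate block, 7 members were higher in all retained cells (5487 of 20383 genes) and 5 in muscle progenitor-like cells (178 of 9893). No call in a named class was lost, while Atf3 in cluster 11 (adjusted p = 0.0811) and Klf6 in cluster 25 (0.0666) were. Depth per cell limits the shares of cells with a UMI. For sums over all MMPlow cells 0 counts allow up to 0.0202 CPM.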
